A study of Homo sapiens with 4 samples.

Results

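Nuclear receptors are transcription factors that sit on DNA and answer to small fat-soluble molecules such as steroids, thyroid hormone, retinoic acid, vitamin D, fatty acids, bile acids and drugs. Most have a zinc-finger domain that reads short hexamers related to AGGTCA and a ligand-binding domain that swaps corepressors for coactivators when the ligand is bound. Many pair with a retinoid X receptor, and in liver cells the family sets much of bile acid, lipid and drug metabolism. The family was taken here as 45 human genes chosen by name. Probe sets carrying a single gene symbol measured 39 of them, with 127 probe sets, out of 19775 genes and 54613 probe sets in all. HNF4A, NR1H2, NR1H4, NR1I2, NR2F2 and NR0B1 were not analysed here. The brightest probe set over the 4 arrays gave the value of a gene, and its other probe sets served as a check.

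Expression was measured with Affymetrix arrays in HuH7, an established human hepatocellular carcinoma line. Of the 4 arrays, 2 hold KDM6B wild-type HuH7 and 2 hold KDM6B knockout HuH7. KDM6B is a demethylase that removes a repressive histone mark, and it was targeted with the CRISPR/Cas9 system (a guide vector and a human Cas9 vector) followed by G418 selection. The series is concerned with resistance to lipotoxicity after loss of KDM6B. Knockout cells came from subclones grown out by limiting dilution with a single guide, and the labels do not say which subclone each array holds, whether cultures were separate, or whether wild-type cells carried the vectors. What a subclone carries and what KDM6B loss does cannot be told apart here. The p-values reflect the spread among these arrays alone, and that spread may be technical.

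All values are log2 expression values as deposited, and each difference is the knockout mean less the wild-type mean, with its standard error (SE) from limma. A gene was called where limma's p-value, adjusted by the Benjamini-Hochberg method over all 19775 genes, was under 0.05. The targeted gene KDM6B gave 8.46 and 8.27 in wild type, against 7.95 and 8.14 in knockout (difference -0.32, SE 0.12, adjusted p = 0.235). The other KDM6B probe sets gave -0.21, -0.25, -0.40 and -0.28, and none was called. KDM6B also ends a chromosome 17 stretch of mostly lower genes, described with GPS2 further on, whose part in these readings was not tested. The mRNA of an edited gene need not fall, so these readings do not check the labels. Array correlations over all probe sets were 0.993 and 0.994 within groups and 0.985 to 0.989 between them. All 11 measured hepatocyte markers, led by ALB, stood above the level of olfactory receptor genes in both groups, against 2 of 8 fibroblast markers, 1 of 7 endothelial markers and 2 of 4 leukocyte markers. Of the hepatocyte markers 2 rose and 4 fell, AHSG by 4.02 (singled out after its values were seen). Of the other markers PECAM1 and LYZ fell, by 0.88 and 1.58. The part of these marker changes in the results was not tested.

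The sequences below show the best-known kind of receptor site in this family, a direct repeat bound by a retinoic acid receptor with its retinoid X partner, in the start region of a member (RARB) and of a retinoic acid target that rose in knockout (CYP26A1, which destroys retinoic acid). RefSeq start regions of GRCh38.p14, 250 bases before to 50 after a gene's start, were searched on both strands for 4 hexamers, AGGTCA itself, the variant AGTTCA, the variant GGGTCA and the variant GGTTCA, repeated in the same direction with 1 to 5 bases between them. Of 35116 such regions 31 (0.0883%) held a pair with a spacer of 5. For 40 of the 45 receptors, matched by symbol, 95 regions were at hand, and RARB had the only repeat of any of these spacers among them. Among the regions searched for the receptor target and cofactor genes described further on, CYP26A1 had the only such repeat. The regions of 1 whole chromosome were left out of the search for these genes, and it may not have covered all the others. A repeat in the start region of another listed gene is thus not excluded. Capitals mark the repeated hexamers.

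RARB, chr3:25428013-25428312, plus strand, with the repeat on this strand beginning 53 bases before the gene start: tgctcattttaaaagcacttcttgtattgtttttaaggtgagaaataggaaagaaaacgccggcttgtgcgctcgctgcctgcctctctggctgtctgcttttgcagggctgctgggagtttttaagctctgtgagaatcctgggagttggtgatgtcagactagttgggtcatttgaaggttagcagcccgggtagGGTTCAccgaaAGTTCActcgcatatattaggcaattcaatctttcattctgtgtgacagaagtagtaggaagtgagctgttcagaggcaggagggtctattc
CYP26A1, chr10:93073643-93073942, plus strand, with the repeat on the opposite strand beginning 90 bases before the gene start: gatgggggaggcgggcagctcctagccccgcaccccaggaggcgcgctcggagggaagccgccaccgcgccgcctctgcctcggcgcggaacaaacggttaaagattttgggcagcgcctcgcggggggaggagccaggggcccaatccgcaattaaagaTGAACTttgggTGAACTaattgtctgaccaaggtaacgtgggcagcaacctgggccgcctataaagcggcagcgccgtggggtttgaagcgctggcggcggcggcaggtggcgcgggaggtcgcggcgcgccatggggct

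A match is a description of letters and not a measured binding site, and these arrays carry no binding data.

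Across the family, 3 receptor genes rose in knockout. They were PPARG, the fatty acid receptor known for fat storage, NR5A2, a liver receptor that drives bile acid and cholesterol genes, and VDR, the vitamin D receptor. They make up 7.69% of the 39 measured members, where 7.07% of all genes were called, 3.14% higher and 3.94% lower, so the share called was near the background. No member was called lower by limma, while 5 lower and 5 higher members had an unadjusted p under 0.05. Of the 25 members above the olfactory receptor level in both groups, 3 (12%) were called, against 10.7% of all genes above it. The median difference over the 39 members was 0.04, and 0.01 over all genes. The pairs of arrays did not overlap for 21 members, 11 with knockout above and 10 below, or 53.8%, while 45.9% of all genes were separated in this way.

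**Figure D1:**
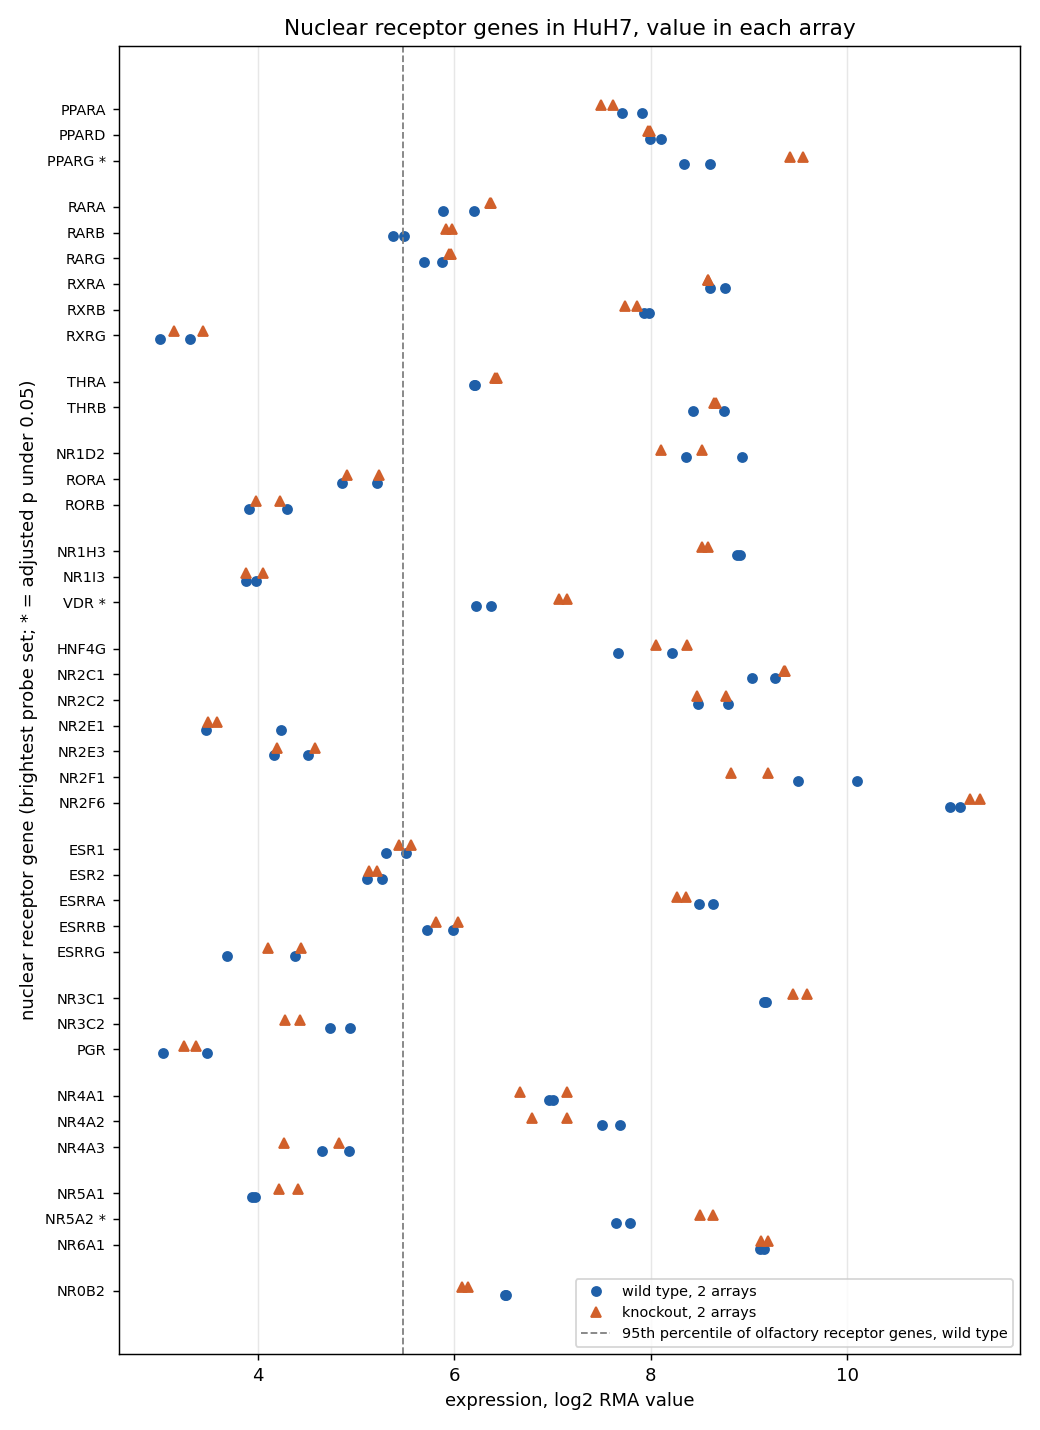
Log2 RMA value of each nuclear receptor gene in each of the 4 arrays, grouped by receptor type, with circles for wild type, triangles for knockout and an asterisk for an adjusted p under 0.05. PPARG, VDR and NR5A2 have both knockout arrays to the right of both wild-type arrays, and 12 genes stay at or left of the dashed olfactory receptor level in both groups.

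To place levels, olfactory receptor genes, which liver cells are not expected to use, gave a rough reference, since no detection calls were used and probe sets differ in affinity. The 95th percentile of the 82 measured ones was 5.48 in wild type and 5.45 in knockout. Of the 39 receptors, 25 had both group means above it, RARB and ESR1 in knockout alone, and 12 in neither group. Those 12 were RXRG, RORA, RORB, NR1I3, NR2E1, NR2E3, ESR2, ESRRG, NR3C2, PGR, NR4A3 and NR5A1, for which a level above background was not shown.

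The fatty acid receptors gave the largest difference of the family. PPARG read 8.61 and 8.34 in wild type against 9.55 and 9.41 in knockout, with means of 8.47 ± 0.19 and 9.48 ± 0.09 (SD, n = 2 each). Both knockout arrays lay above both wild-type arrays, a 2.01-fold rise (difference 1.01, SE 0.12, limma adjusted p = 0.0131). PPARG was read by 1 probe set, of a type (_s_at) that can match more than 1 transcript, so no second reading was at hand. PPARA, the receptor that turns on fatty acid oxidation in fasting liver, read 7.91 and 7.71 against 7.50 and 7.61. Its arrays did not overlap, but the difference of -0.25 (SE 0.12) did not pass (adjusted p = 0.346), and 6 of its 8 other probe sets were also lower, with differences from -0.60 to 0.31 over all 8. PPARD, the broadly expressed member, read 8.10 and 7.99 against 7.97 and 7.99, and its difference of -0.07 (SE 0.10) was smaller than its SE.

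NR5A2 read 7.79 and 7.64 in wild type against 8.50 and 8.64 in knockout, with means of 7.72 ± 0.11 and 8.57 ± 0.09 (SD, n = 2 each). The groups were separate and the rise was 1.81-fold (difference 0.85, SE 0.11, limma adjusted p = 0.0157). Its 3 other probe sets were higher in knockout as well, by 0.76, 0.24 and 0.74, with separate groups in each, although none of these was called in the fit over all probe sets. The last of them read 2.95 and 2.42 against 3.05 and 3.79, under the olfactory receptor level, and carries little weight. VDR read 6.38 and 6.22 in wild type against 7.06 and 7.15 in knockout, with means of 6.30 ± 0.11 and 7.11 ± 0.06 (SD, n = 2 each). That was a 1.75-fold rise with separate groups (difference 0.81, SE 0.13, limma adjusted p = 0.0247). Of the 3 other VDR probe sets, one was 0.76 higher with separate groups, and the others were 0.22 and 0.17 higher with overlapping arrays. With the mean of all probe sets of a gene neither call held (VDR 0.49, adjusted p = 0.068; NR5A2 0.65, adjusted p = 0.073).

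The 3 rises depended on all 4 arrays being present. With any 1 array left out, no receptor was called by limma, and the differences were 0.88 to 1.14 for PPARG, 0.78 to 0.93 for NR5A2 and 0.73 to 0.88 for VDR, with adjusted p of 0.057 to 0.151, 0.083 to 0.174 and 0.098 to 0.232. Just outside the threshold lay NR4A2 (adjusted p = 0.085), NR3C1 (0.096) and RARB (0.099), so that 6 members passed an adjusted p of 0.10. None of the 3 called genes had neighbours shifted by 0.3 or more. The median difference of their 20 nearest expressed genes in the RefSeq order was -0.08 for PPARG, -0.16 for NR5A2 and 0.07 for VDR, against -0.04 for a typical gene.

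**Figure D2:**
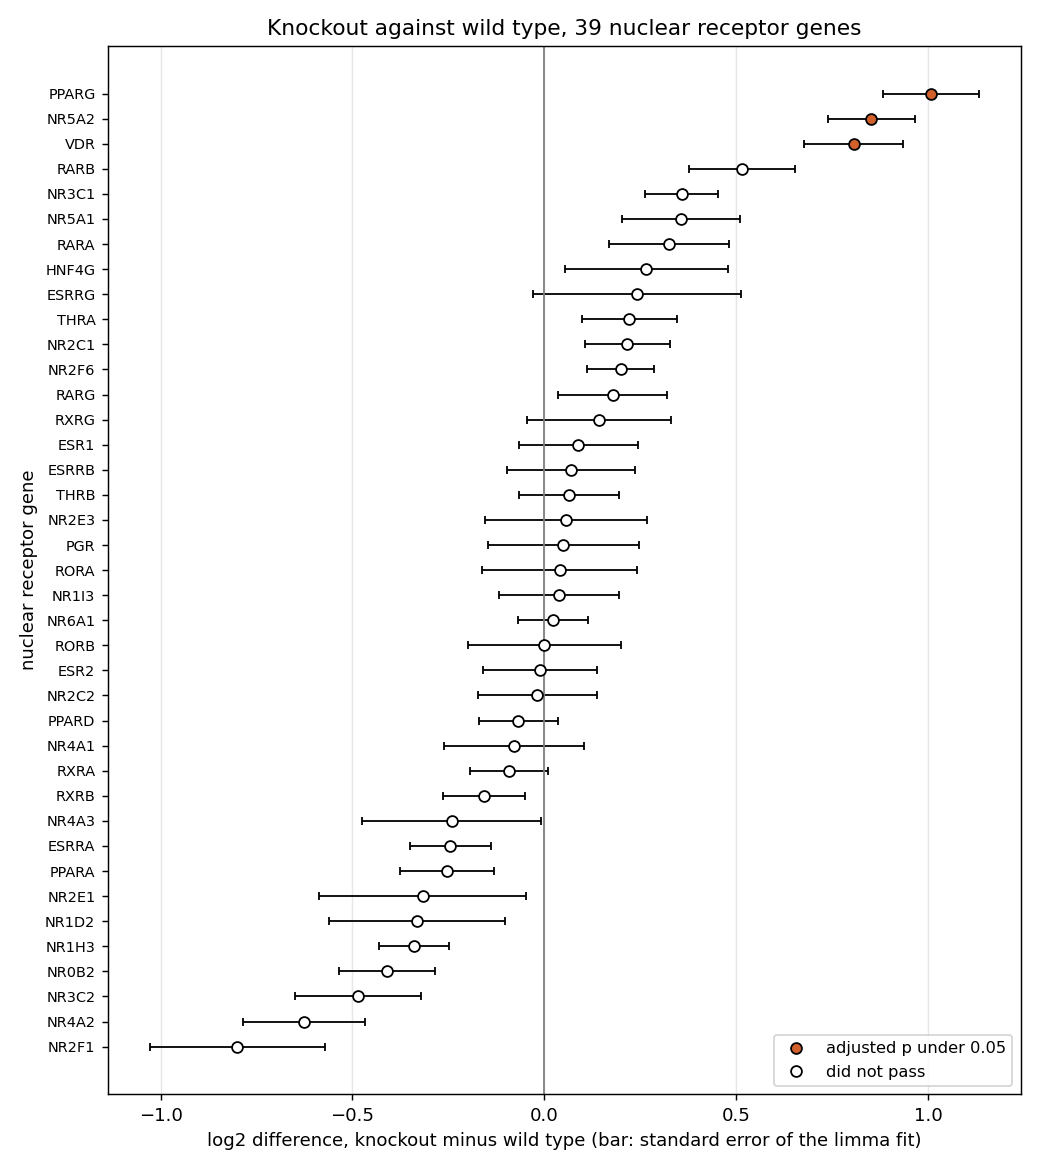
Log2 difference, knockout minus wild type, for the 39 measured nuclear receptor genes, with bars for the standard error of the limma fit. Filled points are PPARG, NR5A2 and VDR, the genes with an adjusted p under 0.05, and NR2F1 at -0.80 has the lowest difference with a wider error.

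Among retinoid receptors, which bind vitamin A acids, the 3 RAR genes read higher and the expressed RXR genes slightly lower, and none was called. RARB, itself a classical retinoic acid target, read 5.38 and 5.48 in wild type against 5.91 and 5.98 in knockout (difference 0.51, SE 0.14, adjusted p = 0.099). Its arrays were separate, but only 1 of its 4 other probe sets, all dimmer, had the same sign. RARA read 5.88 and 6.20 against 6.37 and 6.37 (difference 0.33, SE 0.16, adjusted p = 0.343), and RARG 5.69 and 5.87 against 5.95 and 5.97 (0.18, SE 0.14). The common partner RXRA read 8.75 and 8.60 against 8.58 and 8.58, a difference of -0.09 (SE 0.10, adjusted p = 0.742). RXRB read 7.93 and 7.98 against 7.86 and 7.74 (-0.16, SE 0.11), and RXRG stayed at or below 3.45 on all arrays. RXRA and RXRB, the RXR genes above background, had separate groups, and neither difference passed.

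Thyroid hormone receptors and clock receptors had no call. THRA, the widespread form, read 6.20 and 6.21 against 6.44 and 6.42 (difference 0.22, SE 0.12, adjusted p = 0.421), and only 1 of its 3 other probe sets shared the sign. THRB, the main form in liver, read 8.75 and 8.43 against 8.64 and 8.66, with overlapping arrays and a difference of 0.06 (SE 0.13). The REV-ERB gene NR1D2, a repressor in the circadian loop, read 8.93 and 8.36 against 8.10 and 8.52, also overlapping (-0.33, SE 0.23, adjusted p = 0.533). A second NR1D2 probe set read 7.68 and 7.46 against 6.86 and 6.88, separate and 0.69 lower, and fell just short in the fit over all probe sets (adjusted p = 0.055). RORA (4.86 to 5.24) and RORB (3.91 to 4.30), which oppose REV-ERB at the same sites, had overlapping groups.

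Of the sterol and drug sensors besides VDR, NR1H3, the oxysterol receptor LXR alpha, read 8.88 and 8.90 in wild type against 8.52 and 8.58 in knockout. Replicates lay within 0.06 of each other and the groups were separate, but the difference of -0.34 (SE 0.09) did not pass (adjusted p = 0.101). NR1I3, the xenobiotic receptor CAR, stayed between 3.88 and 4.05 on all arrays. NR0B2, the small heterodimer partner, which lacks a DNA-binding domain and is switched on by bile acids to silence bile acid synthesis, read 6.52 and 6.52 against 6.14 and 6.08. Its groups were separate too, with a difference of -0.41 (SE 0.12, adjusted p = 0.134) from its only probe set.

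The orphan receptors of the HNF4, TR and COUP-TF branch showed their largest difference in NR2F1. This COUP-TF gene, a regulator of cell fate, read 10.10 and 9.50 in wild type against 8.81 and 9.19 in knockout, a difference of -0.80 (SE 0.23). The replicates of both groups were spread, and the adjusted p of 0.114 did not pass. NR2F6, a relative that represses transcription, read 11.05 and 11.15 against 11.34 and 11.25 (0.20, SE 0.09, adjusted p = 0.290). HNF4G read 8.22 and 7.67 against 8.05 and 8.37, overlapping (0.27, SE 0.21). NR2C1 and NR2C2, the testicular receptors, differed by 0.22 (SE 0.11) and -0.02 (SE 0.16), and the brain and retina genes NR2E1 and NR2E3 read 3.48 to 4.58 throughout. NR6A1, the germ cell nuclear factor, read 9.12 to 9.19 on all 4 arrays, a difference of 0.02 (SE 0.09), and NR5A1, the steroidogenic relative of NR5A2, read 3.94 and 3.97 against 4.41 and 4.21, under the olfactory receptor level.

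Among steroid receptors NR3C1, the glucocorticoid receptor, read 9.17 and 9.15 in wild type against 9.59 and 9.45 in knockout. The groups were separate and the difference of 0.36 (SE 0.10) did not pass (adjusted p = 0.096), while all 4 other probe sets of the gene were also higher, by 0.20 to 0.55. NR3C2, the mineralocorticoid receptor, read 4.94 and 4.74 against 4.27 and 4.43 (-0.49, SE 0.16, adjusted p = 0.171), below the olfactory receptor level in both groups. PGR, the progesterone receptor, read 3.03 to 3.48. ESR1 and ESR2, the oestrogen receptors, had differences of 0.09 (SE 0.15) and -0.01 (SE 0.15) near the background level. ESRRA, a partner of the PGC-1 coactivators in mitochondrial gene control, read 8.63 and 8.48 against 8.35 and 8.27 (-0.24, SE 0.11, adjusted p = 0.279), and its second probe set gave -0.20. ESRRB and ESRRG differed by 0.07 (SE 0.17) and 0.24 (SE 0.27), with overlapping arrays.

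The NR4A genes, which are switched on within minutes by many stimuli and need no known hormone, all read lower in knockout without a call. NR4A2 read 7.68 and 7.51 against 6.79 and 7.14 (difference -0.63, SE 0.16, adjusted p = 0.085). Its other probe sets were lower by 0.89 and 0.60 with separate groups, and with the mean of its probe sets NR4A2 was called (-0.71, limma adjusted p = 0.048). NR4A1 read 6.97 and 7.00 against 7.14 and 6.67, so that knockout arrays lay on either side of wild type (-0.08, SE 0.18). NR4A3 read 4.65 and 4.93 against 4.82 and 4.27, and its other probe sets did not share the sign.

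**Figure D3:**
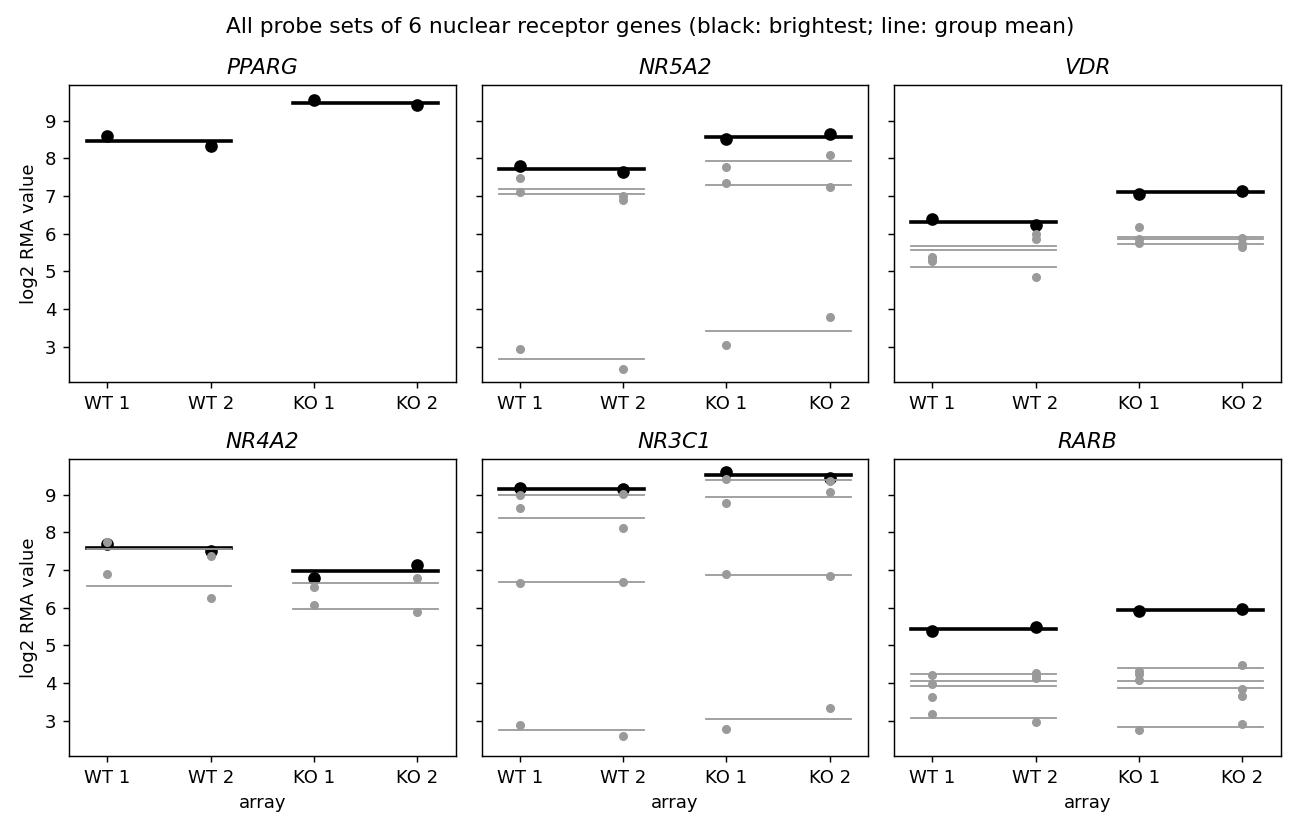
Log2 RMA values of every probe set of 6 nuclear receptor genes on each array (WT 1, WT 2, KO 1, KO 2), with the brightest probe set in black and lines at the group means. PPARG has a single probe set, those of NR5A2, VDR and NR3C1 lie higher in knockout to differing degrees, those of NR4A2 lower, and those of RARB differ in sign.

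Over the family, 31 receptors had more than 1 probe set, and in 16 of them all other probe sets shared the sign of the brightest. Probe sets ending in _s_at or _x_at read 11 of the 39 genes. Medians of the spread between replicates were similar to those of all genes, at 0.14 in wild type and 0.09 in knockout for the members (SD) and 0.12 and 0.11 for all genes.

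Genes known to be controlled by these receptors were examined in lists drawn from general knowledge. The lists were chosen with earlier results of these data known, so the shares called are not an independent test. Together with coregulators and ligand enzymes they comprised 164 genes, of which 147 were measured and 29 called, 9 higher and 20 lower (19.7%, against 7.07% of all genes). Of those above the olfactory receptor level in both groups 25 of 106 (23.6%) were called, beside 10.7% of all genes above it. A change in a listed gene does not show that its receptor acted, since such genes answer to many factors and some stand in several lists.

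With 1 array left out, calls among the listed genes numbered 0 (without knockout 1), 1 (without knockout 2) and 5 (without either wild-type array). All calls below rest on the 4 arrays together. Among the 29 called genes 11 were also called in every one of up to 8 other settings with all arrays (no intensity trend, other choices of probe set, normalization, genes or threshold), and 18 lost the call in at least 1 of them. The looser threshold, an adjusted p under 0.10, keeps every call by construction and is counted each time. The setting of genes at or above the median kept a gene where the larger of its group means reached 6.19, which favours changed genes. PLAAT4 and STS passed it through knockout alone, and UGT2B4, CYP2B6 and TAT through wild type alone. For these genes a call in that setting adds no support. The 2-fold difference of means without a test and the replicate blocks of the closing section are not counted. Of the 29 called genes 13 also reached a 2-fold difference. ABCB1, APOB, FGF19, PLTP and SLC51A, called in every counted setting, did not reach it.

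In the fit as described, targets of the bile acid receptor FXR and of HNF4A had the most falls among the target lists, with 5 each. Over all genes 3.94% were called lower. Of the 11 hepatocyte markers 4 fell too, and the fallen genes APOB and SERPINA1 stand in both that list and the HNF4A list. Without the intensity trend FXR targets had 3 and HNF4A targets 2, and the LXR and the PXR and CAR lists also had 2 each. Of 12 measured FXR targets 5 fell and none rose (0 rises also at an unadjusted p under 0.05, with 8 lower), and their median difference was -0.48, against 0.01 for all genes. UGT2B4, which conjugates bile acids with glucuronic acid, fell by 2.97 (SE 0.32), from 8.29 and 7.47 to 4.64 and 5.20. Its knockout level lay below the olfactory receptor level, so the size is uncertain. SLC51A, a subunit of the basolateral bile acid exporter, read 8.36 and 8.24 against 7.53 and 7.34 and fell by 0.86 (SE 0.12, limma adjusted p = 0.0175). Its partner subunit SLC51B, singled out after its values were seen, did not pass (-0.23, SE 0.09). ABCB4, the phospholipid exporter of the canalicular membrane, fell by 1.33 (SE 0.26), but its other probe set gave 0.13. That other probe set read 3.25 to 3.63, under the olfactory receptor level, and is a weak check. The knockout values of the brightest ABCB4 probe set too lay under that level, and the call held in 3 of 7 other settings. FGF19, the hormone that signals bile acid load, was also singled out after its values were seen, and fell from a mean of 8.02 to 7.32 (-0.70, SE 0.11).

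Of 16 measured HNF4A targets 5 fell and none rose (0 higher and 6 lower at an unadjusted p under 0.05), with a median of -0.15. Without the intensity trend APOC3 and APOB alone were called. APOC3, an inhibitor of lipoprotein lipase, fell from 12.09 and 12.06 to 10.59 and 10.59, by 1.49 (SE 0.08, limma adjusted p = 0.0014), and its dimmer probe set was 0.65 lower without a call. APOB, the structural protein of liver lipoproteins, fell by 0.74 (SE 0.08). The clotting factor gene F7 fell by 0.63 (SE 0.11), and its other probe set gave -0.12. Its 20 nearest expressed genes had a median of -0.40. TTR and TF, also in this list, differed by 0.01 and 0.02.

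Retinoic acid receptor targets had 3 rises and no fall among 10 measured (5 higher and 1 lower at an unadjusted p under 0.05), with a median of 0.26. Over all genes 3.14% were called higher, and without the intensity trend the list had 2 rises. CYP26A1, shown above with its repeat, read 4.28 and 4.52 in wild type against 5.76 and 5.90 in knockout, a rise of 1.43 (SE 0.16, limma adjusted p = 0.0103). Its wild-type values lay under the olfactory receptor level, so the size of the rise is uncertain. PLAAT4, also known as a retinoid-inducible tumour suppressor gene, rose from 5.86 and 5.87 to 7.08 and 7.32 (1.34, SE 0.14), and CRABP2, which carries retinoic acid to its receptor, rose by 0.64 (SE 0.13). The CRABP2 call held in 5 of 8 other settings and was lost without the intensity trend. The related enzyme CYP26B1 read 8.48 and 8.51 against 8.28 and 8.24 (-0.24, SE 0.09) and did not pass.

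**Figure D4:**
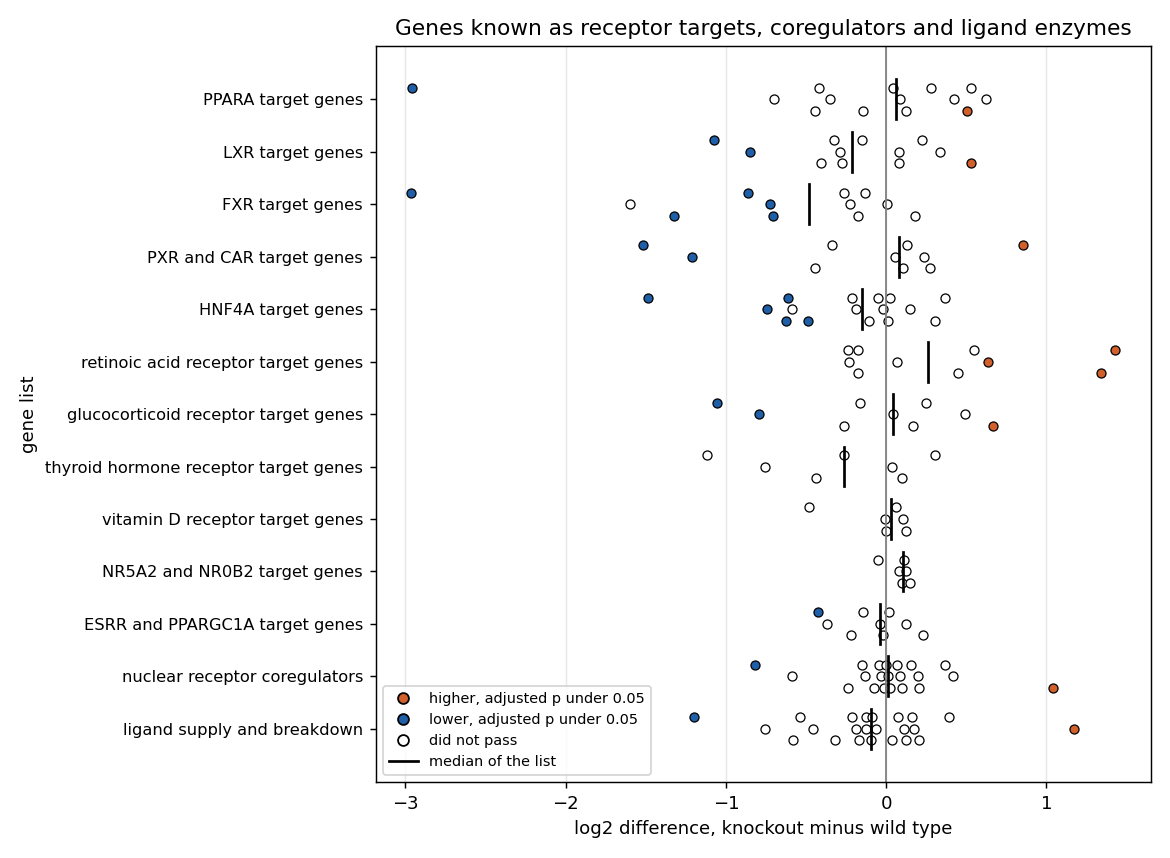
Log2 difference, knockout minus wild type, of each measured gene in 13 lists of receptor targets, coregulators and ligand enzymes, with black bars at list medians and filled points for an adjusted p under 0.05. FXR targets have 5 filled points, all lower, HNF4A targets 5, all lower, and retinoic acid receptor targets 3, all higher.

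Targets of PPARA, LXR, the drug receptors and the glucocorticoid receptor went both ways. Of 14 PPARA targets PLIN2, a lipid droplet coat protein gene, rose by 0.50 (SE 0.09) and ACSL1, which activates long-chain fatty acids, fell by 2.96 (SE 0.22), with its second probe set at -2.21. Of 12 LXR targets, LPCAT3 rose by 0.53, though its other probe set gave -0.30, and the sterol exporter ABCG1 and the phospholipid transfer protein gene PLTP fell by 1.08 (SE 0.16) and 0.85 (SE 0.12). The knockout values of ABCG1 lay under the olfactory receptor level, which leaves the extent of that fall uncertain, and the LPCAT3 call held in 3 of 8 other settings. The best-known LXR targets ABCA1 and SREBF1 had differences of -0.15 and -0.33 and did not pass. Of 10 PXR and CAR targets the drug pump gene ABCB1 rose by 0.85 (SE 0.10), GSTA1 fell by 1.52 (SE 0.13) and CYP2B6 by 1.21, with a second CYP2B6 probe set at -0.01. That second probe set stayed under the olfactory receptor level and is a weak check. CYP3A4, the usual readout of PXR, read 5.76 to 6.21 in all arrays. Of 9 glucocorticoid receptor targets DUSP1 rose by 0.67 (other probe sets 0.18 and 0.04) and TAT and TSC22D3 fell by 1.05 and 0.80. The other probe sets gave -0.01 and 0.15 for TAT and -0.07 and 0.01 for TSC22D3. The other TAT probe sets and the TSC22D3 probe set at 0.01 stayed under the olfactory receptor level and are weak checks. FKBP5 differed by 0.25 without passing.

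The lists for VDR and for NR5A2 held no called gene. Of the 6 VDR targets 4 were above the olfactory receptor level in both groups. Of 6 vitamin D targets none was called by limma, nor had an unadjusted p under 0.05; CYP24A1, which degrades vitamin D and is its most inducible target, read 2.24 to 2.51 on all arrays, under that level, and CD14 differed by -0.01. None of 6 targets of NR5A2 and NR0B2 was called by limma or had an unadjusted p under 0.05 either, but only 1 of them was above that level in both groups, so a change in the other 5 may not have been detectable. SCARB1, a lipoprotein receptor and the one above it, read 10.04 and 10.10 against 10.22 and 10.17. CYP7A1, the first enzyme of bile acid synthesis, read 2.18 to 2.47. Thyroid hormone targets had 0 called of 7 (3 lower and 0 higher at an unadjusted p under 0.05), with ME1 at -0.44 (SE 0.13). Only 3 of these 7 were above the olfactory receptor level in both groups. Of 9 ESRR and PGC-1 targets NDUFS1, a complex I subunit, fell by 0.43 (SE 0.09), a call that held in 2 of 8 other settings.

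Coregulators were called at a share near the background, 2 of 21 (9.52%), with a median of 0.01. NCOA7 rose from 9.31 and 9.43 to 10.50 and 10.32 (1.04, SE 0.10, limma adjusted p = 0.0074), while its 2 dimmer probe sets gave 0.11 and -0.11. GPS2, a subunit of the NCOR and HDAC3 corepressor complex, fell from 8.37 and 8.45 to 7.78 and 7.42 (-0.82, SE 0.15), a call that held in 5 of 7 other settings. GPS2 lies on chromosome 17 among the first 96 expressed genes in the RefSeq order, which end at KDM6B and of which 92 were lower and 60 called lower, and its 20 nearest expressed genes had a median of -0.51. The part of this stretch in the GPS2 fall was not tested. HDAC3, NCOA1, NCOA2 and MED1 differed by 0.15, 0.10, -0.05 and 0.09. Of 23 genes of ligand supply and breakdown the steroid sulfatase gene STS rose by 1.17 (SE 0.23), a call that held in 4 of 7 other settings, and the bile acid and steroid sulfotransferase gene SULT2A1 fell by 1.20 (SE 0.12), the latter with its second probe set at -1.30.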

How the data were processed

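Labels of 4 arrays gave the groups and replicate numbers. The deposited values are log2 expression values made with RMA and affy, per the submitters' processing notes with no version given in the sources. Medians of the arrays as deposited ran from 4.96 to 5.05, and whether normalization removed a shift common to most genes cannot be read from the values. Precision is limited by having 4 arrays. Of 54613 probe sets, 41091 had 1 gene symbol in the platform annotation, 1801 several and 11721 none, and only the first were used for genes. Knockout was compared with wild type across all genes with limma 3.58.1 in R 4.3.3 (lmFit, eBayes with intensity trend, two-sided, Benjamini-Hochberg, 2 residual and 3.62 prior degrees of freedom) on the values as deposited. An exact permutation test of 2 against 2 cannot go below 0.333 and was not run. Neighbourhood medians (10 expressed genes on each side, 19735 genes matched to the RefSeq table) and the hexamer search were added later. Named genes were all members, up to 3 called genes per direction of each list, the brightest gene of lists without a call, KDM6B, and a few others chosen after their values were seen (SLC51B, FGF19, TTR, TF, AHSG, CYP26B1, ABCA1, SREBF1, CYP3A4, FKBP5, CYP24A1, CYP7A1, HDAC3, NCOA1, NCOA2 and MED1). Members and lists were chosen with earlier results of these data known. The fit was tested on simulated data with 200 of 19775 genes changed and independent noise drawn from the fitted model itself. It called 37.4% of 2-fold and 92.3% of 4-fold changes, and 5.21% of its calls were false. These shares hold for data that follow the model and do not measure the error rate of these arrays. Changes of 2-fold or less can thus be missed. Tables and figures used Python 3.11.15, pandas 2.3.3 and matplotlib 3.10.9. Alternatives are listed in the closing section.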

Additional observations from a re-analysis of the deposited data

How the results depend on the processing

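The 3 receptor calls were also made without the intensity trend, with genes at or above the median only, with repeated quantile normalization and with median centring. The same brightest probe sets were called too when the fit and its adjustment ran over all 54613 probe sets. No other probe set of NR5A2 or VDR was called there. With means of probe sets, limma calls of receptors numbered 2 (PPARG and NR4A2). They numbered 6 at an adjusted p under 0.10 and 1 as a 2-fold difference of means without a test (PPARG). Without probe sets ending in _s_at or _x_at they numbered 1 (NR5A2, with 32 members tested). PPARG and VDR could not be tested there, since all their probe sets end in _s_at. Calls over all genes were 1399, and 783 without the trend, 851 without those probe sets, 2236 at an adjusted p under 0.10, 500 as 2-fold differences and 37 to 192 with 1 array left out. Calls among listed target and cofactor genes were 29, and 16, 15, 41 and 15 under the first 4 of these and 0 to 5 with 1 array left out, where knockout 1 left 0 (42 at an unadjusted p under 0.05). With 1 array left out fewer samples are fitted, and the spread of a lone array is borrowed from the other group. For the other changes the cause was not tested.

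Same-numbered arrays deviated oppositely (correlation -0.55 across genes, which are not independent), and with only 2 pairs the numbering was not used to pair arrays. The replicate block left 0 receptor calls (6 at an unadjusted p under 0.05), 4 calls among the listed genes and 175 over all genes. A crossed block, added after seeing the data, gave 9 receptor calls, 54 among the listed genes and 3662 over all genes.

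Without probe sets ending in _s_at or _x_at, ABCB4 changed from -1.33 to 0.13 and TSC22D3 from -0.80 to 0.011, neither called there. The probe sets used there read 3.25 to 3.63 for ABCB4 and 3.82 to 4.32 for TSC22D3. Both lie under the olfactory receptor level, where a change may not be detectable. Receptors without a call changed sign most often, 9 of them, without wild type 1.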
